A study of Mus musculus with 16 samples.

Results

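Brown adipose tissue, the fat that burns fuel to make heat, was compared with white adipose tissue, the fat that stores it, in the chromatin that each kept open. ATAC-seq inserts sequencing adapters into accessible DNA with a transposase, so that a peak of insertions marks open chromatin. The comparison took 4 of the 16 libraries of the series, fed and fasting brown adipose against fed and fasting white adipose. All were from male C57BL/6 mice on chow, acquired as young adults, either with free access to food or after a day-long fast. Each library was made from nuclei of tissue powder pooled over several mice, so that there was 1 library per depot and state and no replicate. As the study's methods describe it, the tissues of a state came from the same group of mice, so that brown and white adipose of a state are not independent samples. The labels do not say which white or brown depot was taken.

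Each deposited list holds peaks with a p-value, a q-value (the p-value corrected for the false discovery rate) and a fold over the local background. A region was a distinct peak interval, and the set of a library was its regions with a q-value of at most 0.01. The sets held 149835 regions in fed and 131688 in fasting brown adipose, and 156687 in fed and 148599 in fasting white adipose. Depth, given as the background tags behind a peak, was 12.8 and 6.76 in brown and 10.02 and 5.87 in white adipose, so that the fed libraries were the deeper of each depot. All 4 lists were of nearly the same length (298996 to 299475 rows), and their smallest −log10 q was 5.26 in fed brown and 4.22 in fed white adipose against 0.649 and 1.48 in the fasting lists. Absence from a list is therefore not absence of accessibility, and the value of a region is given as a rank, the percentile of its p-value among all regions of its own list, with 0 where the list holds none.

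A region was called depot-specific where the sets of both states of a depot held it and no deposited peak of either state of the other depot touched it by 1 bp. Of 258506 merged regions, 16014 (6.19%) were brown-specific, 14822 (5.73%) were white-specific and 60425 (23.4%) lay in all 4 sets. Absence in the other depot and presence in both states chose these regions and are no finding. The 2 libraries of a depot differ in feeding, so their difference holds the response to fasting and the spread between libraries together. With 2 against 2 libraries the smallest two-sided exact permutation p is 0.333, so calls between depots follow a rule of size and carry no p-value. In bulk tissue, fewer cells of a type and less open chromatin per cell cannot be told apart.

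Brown adipocytes are packed with mitochondria, whose inner membrane carries Ucp1, the uncoupling protein that lets protons return without making ATP and so turns fat oxidation into heat. Brown fat of this kind descends from a lineage related to skeletal muscle, and its identity is held by factors such as Prdm16, Ebf2 and Pparg with the coactivator Ppargc1a and the estrogen-related receptors. White adipocytes share the general fat program under Pparg and the C/EBP factors, secrete hormones such as leptin (Lep), and carry positional factors that differ with the place of the depot.

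The sequences of regions that carry the comparison are shown first, each 141 bp around the summit on the plus strand of GRCm38. The first 3 lie upstream of Ucp1, at chr8:83284576-83284716, chr8:83285617-83285757 and chr8:83287897-83288037, and were the strongest of its brown-specific regions. The next 4 are the strongest distal intronic or intergenic brown-specific regions with the motif of an estrogen-related receptor (ERR, chr11:97850482-97850622), of an early B-cell factor (EBF, chr9:73270465-73270605), of a PPAR:RXR pair (DR1, chr14:60806039-60806179) and of MEF2 (chrX:52237674-52237814). The last 4 are a white-specific region downstream of Lep (chr6:29086581-29086721) and the strongest such white-specific regions with the motif of PU.1 (chr14:14520361-14520501), AP-1 (chr6:29620352-29620492) and the glucocorticoid receptor (GR, chr11:34072391-34072531). Capitals mark ERR, EBF, DR1, MEF2 and NFI motifs in brown-specific and PU.1, AP-1, GR, RUNX and GATA motifs in white-specific regions, read on either strand, and a sequence without capitals held none of its 5 motifs.
Ucp1, 5706 bp upstream: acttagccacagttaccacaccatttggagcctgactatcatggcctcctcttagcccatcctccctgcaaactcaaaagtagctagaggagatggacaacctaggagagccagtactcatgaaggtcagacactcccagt
Ucp1, 4665 bp upstream: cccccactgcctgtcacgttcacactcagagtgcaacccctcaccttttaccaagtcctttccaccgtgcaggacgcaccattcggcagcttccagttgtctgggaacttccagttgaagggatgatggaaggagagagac
Ucp1, 2385 bp upstream: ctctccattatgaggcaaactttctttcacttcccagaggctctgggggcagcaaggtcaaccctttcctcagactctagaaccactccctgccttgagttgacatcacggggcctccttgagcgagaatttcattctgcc
ERR, intergenic near Fbxo47: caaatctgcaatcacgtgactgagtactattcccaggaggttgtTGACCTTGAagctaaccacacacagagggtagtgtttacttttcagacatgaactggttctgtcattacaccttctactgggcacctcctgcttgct
EBF, intergenic: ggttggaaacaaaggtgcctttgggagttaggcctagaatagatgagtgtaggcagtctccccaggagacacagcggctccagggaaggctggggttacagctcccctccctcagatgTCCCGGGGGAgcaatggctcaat
DR1, intron of Mipep: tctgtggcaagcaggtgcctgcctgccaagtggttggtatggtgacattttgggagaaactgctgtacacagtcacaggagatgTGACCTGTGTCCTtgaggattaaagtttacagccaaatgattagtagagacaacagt
MEF2, intergenic near Gpc4: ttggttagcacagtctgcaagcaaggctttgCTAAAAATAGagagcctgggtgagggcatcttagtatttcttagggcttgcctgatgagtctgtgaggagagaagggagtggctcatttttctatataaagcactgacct
Lep, 26431 bp downstream: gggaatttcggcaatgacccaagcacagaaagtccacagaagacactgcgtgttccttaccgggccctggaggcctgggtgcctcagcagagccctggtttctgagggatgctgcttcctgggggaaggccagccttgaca
PU.1, intergenic: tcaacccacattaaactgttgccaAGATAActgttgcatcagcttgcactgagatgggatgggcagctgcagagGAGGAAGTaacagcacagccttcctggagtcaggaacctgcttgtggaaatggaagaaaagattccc
AP-1, intergenic near Tnpo3: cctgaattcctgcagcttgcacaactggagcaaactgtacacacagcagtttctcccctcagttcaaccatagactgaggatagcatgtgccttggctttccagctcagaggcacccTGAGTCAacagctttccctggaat
GR, near Lcp2: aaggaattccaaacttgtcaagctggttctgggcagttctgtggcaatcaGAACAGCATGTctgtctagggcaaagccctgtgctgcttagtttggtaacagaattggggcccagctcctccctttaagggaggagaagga

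The ERR region ranked at 91.1 (fed) and 93.8 (fasting) in brown adipose, with a fold of 14.96 and 12.1 over background. The EBF region ranked at 97.0 and 96.7, the DR1 region at 88.4 and 90.3, and the MEF2 region at 92.9 and 93.5. In white adipose the PU.1 region ranked at 85.8 (fed) and 94.5 (fasting), the AP-1 region at 93.9 and 93.2, and the GR region at 92.6 and 92.8. The other depot listed no peak at any of these places, as the rule requires.

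Ucp1 separated the depots at its promoter and in the intergenic DNA before it. The promoter rank, the highest rank among regions with a summit within 3000 bp of a start of the gene, was 92.4 in fed and 89.5 in fasting brown adipose. In white adipose it was 9.98 in the fed library and 0 in the fasting library. Outside the 2 depots the Ucp1 promoter had a rank above 0 in the spleen libraries alone, 65.3 in fed and 30.2 in fasting spleen. Within 50 kb of the gene (chromosome 8, plus strand) 9 brown-specific regions, 1 white-specific region and 4 regions of all 4 sets were found. The strongest brown-specific region lay 5706 bp upstream, at 83284282 to 83284833, with ranks of 89.7 fed and 91.2 fasting. Regions 4665 bp upstream (81.5 and 83.9) and 2385 bp upstream (84.7 and 89.5) followed. Regions at 17641 bp (76.2 and 75.5, within the neighbouring gene Tbc1d9), 10853 bp (81.5 and 75.5) and 675 bp upstream (59.6 and 66.9) were weaker. The 3 intronic regions, at 1736, 5095 and 7137 bp downstream of the start, had ranks from 21.7 to 52.9. The 6 upstream regions thus ranked above the 3 intronic ones in both states, and none of the 9 lay downstream of the gene. The single white-specific region lay 46107 bp upstream in an intron of Tbc1d9, with ranks of 11.9 and 60.6. With tags thinned until the background tags of the 4 libraries were equal, 9 brown-specific and 0 white-specific regions were found in the window, and 5 brown-specific regions were found with the 50000 strongest regions of each library as its set.

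**Figure D1:**
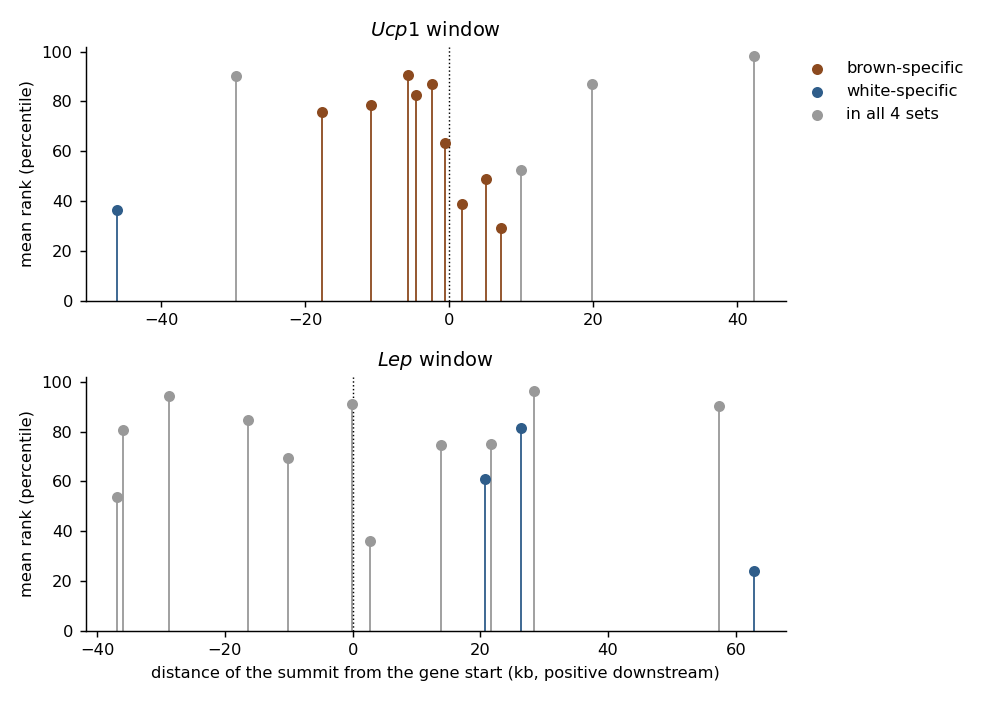
Regions in the windows of Ucp1 and Lep, by the distance of the summit from the gene start in kb (positive downstream) and the mean rank over the libraries of the depot that holds them (all 4 libraries for regions of all 4 sets). The 9 brown-specific regions of Ucp1 sit around and before its start, while the Lep promoter is a region of all 4 sets and its 3 white-specific regions lie downstream.

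Leptin did not mark white adipose at its promoter. Lep encodes the hormone by which white fat reports its stores to the brain. Its promoter rank was 95.1 in fed and 91.6 in fasting brown adipose, and 89.5 and 88.4 in white adipose, so both brown libraries were above both white libraries by a mean of 4.45 points, less than the 20 points required for a call. In the other 6 tissues it was at most 48.5. The Lep window (chromosome 6, plus strand) held 11 regions of all 4 sets, 0 brown-specific and 3 white-specific regions, all downstream of the gene start. The region at 26431 bp (29086028 to 29086787) had ranks of 91.4 fed and 71.4 fasting, that at 20802 bp had 81.3 and 40.7, and that at 62862 bp had 7.35 and 40.9. A region of all 4 sets 10148 bp upstream had ranks of 44.2 and 53.8 in brown against 88.2 and 91.8 in white adipose. At q under 1e-06 for the sets 1 of the 3 white-specific regions was left, and with the 50000 strongest regions 0. By nearest protein-coding start within 100 kb in place of the window, Lep had 3 brown-specific and 3 white-specific regions.

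The genes of the thermogenic brown adipocyte list differed between the depots at their promoters and around them. Of its 14 genes, 5 had a promoter ranked higher in brown adipose (both brown ranks above both white ranks and a difference of the means of at least 20 points) and 0 ranked higher in white adipose. Over all 17521 protein-coding genes with a promoter region in any of the 4 libraries these shares were 2.51% (439 genes) and 6.86% (1202 genes). Beside Ucp1 the 5 were Otop1, Cpt1b, Bmp8b and Cidea. Otop1, a proton channel, had ranks of 93.0 and 94.95 in brown and 0 in both white libraries. Cpt1b, which admits long-chain fatty acids to the mitochondrion in muscle and brown fat, had 92.6 and 95.8 in brown and 0 in both white libraries. Its promoter was also open in muscle (94.2 and 94.8) and heart (89.9 and 92.0), and ranked at 81.5 in fasting liver and fasting kidney. Bmp8b, a secreted signal that raises the thermogenic response, had 92.2 and 93.3 in brown against 31.7 and 65.4 in white adipose. Cidea, a lipid droplet protein, had 95.01 and 95.7 against 68.9 and 68.8. The call itself requires ranks that do not overlap between depots.

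The other 9 promoters of the list were open in all 4 libraries, with white ranks from 71.02 (Dio2, fed) to 98.2 (Gk, fasting). Dio2, the deiodinase that activates thyroid hormone, had 91.9 and 87.5 in brown against 71.02 and 82.7 in white adipose, and Cox8b, a respiratory chain subunit, had 88.2 and 90.4 against 80.3 and 80.6. Ppargc1a, the coactivator of mitochondrial biogenesis, had 88.0 and 91.0 against 91.4 and 79.0, so its groups overlapped. Gk went the other way, with 94.8 and 97.1 in brown against 97.5 and 98.2 in white adipose, without overlap and short of a call.

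These promoters nevertheless lay among brown-specific regions. In the windows of 13 of the 14 thermogenic genes (92.9%) brown-specific regions outnumbered white-specific ones, with 95 brown-specific and 7 white-specific regions in all, and the reverse held for 0. Over all 21911 protein-coding genes brown-specific regions were in excess at 31.1% and white-specific regions at 32% (6813 and 7008 genes). Ppargc1a had 15 brown-specific and 0 white-specific regions, Kcnk3, a potassium channel, 14 and 0, Cidea 13 and 0, Cpt1b 9 and 0, Otop1 8 and 0, and the fatty acid elongase Elovl3 7 and 1. Letmd1 had 5 and 1, Cox7a1 4 and 2, Acot11 and Bmp8b 3 and 1 each, Cox8b 3 and 0, and Gk 2 and 0. Dio2 had 0 of either kind.

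**Figure D2:**
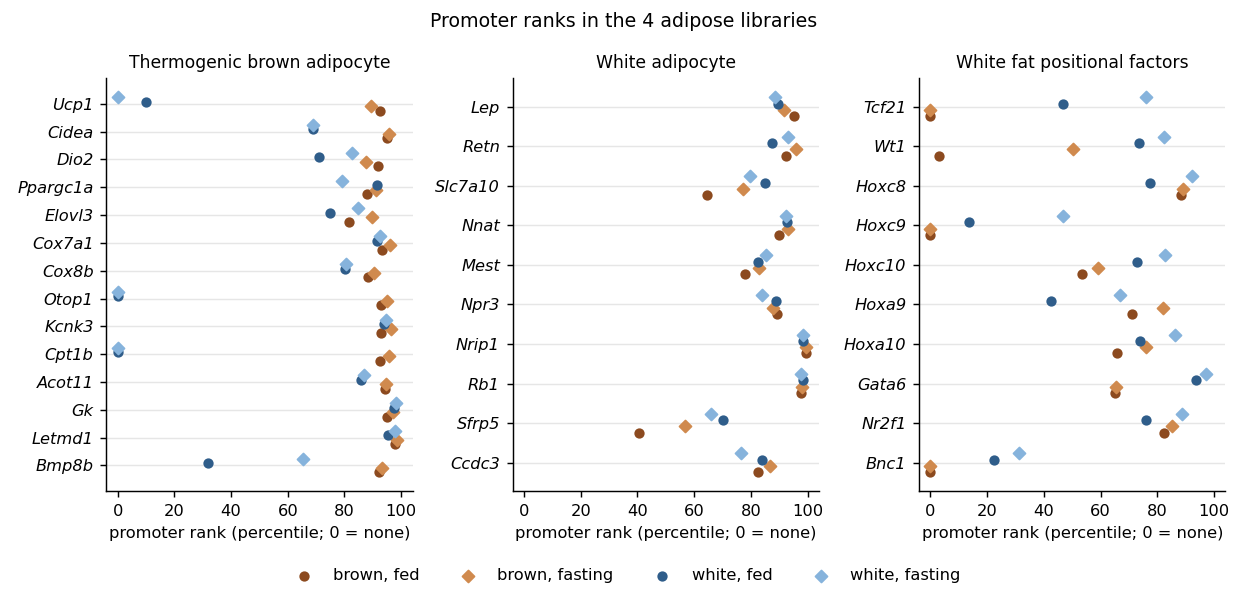
Promoter ranks (percentile of the p-value within each list, 0 where no region lay within 3000 bp of a start) of the genes of 3 lists in the fed (circles) and fasting (diamonds) libraries of brown and white adipose. Ucp1, Otop1 and Cpt1b stand near 90 in brown and at 0 to 9.98 in white adipose. The white adipocyte genes differ by less than 20 points of mean rank between depots, and Tcf21, Hoxc9 and Bnc1 are at 0 in both brown libraries.

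Brown-specific regions were in excess around most of the factors that hold brown identity. Of 12 brown fat factors, 1 promoter was called higher in brown and 0 in white adipose, against 9 genes (75%) with an excess of brown-specific and 2 (16.7%) with an excess of white-specific regions. The list held 147 brown-specific and 20 white-specific regions. Over all protein-coding genes the shares with such an excess were 31.1% and 32%, and in the general adipocyte list 68.8% and 18.8%. The excess was thus not particular to factors of brown identity. Of all promoters tested, 2.51% were called higher in brown and 6.86% in white adipose. Zic1, a zinc finger factor of the lineage of dorsal brown fat, was the promoter called, with 79.0 and 88.4 in brown against 41.2 and 38.1 in white adipose, and had 9 brown-specific regions and 0 white-specific ones. The Zic1 promoter ranked up to 81.4 in liver, so its rank was not particular to brown adipose. Prdm16, the factor that holds brown cells apart from muscle, had 39 brown-specific regions and 1 white-specific region around a promoter at 89.4 and 92.4 in brown and 82.5 and 80.4 in white adipose. In its introns, the region at chr4:154574460-154575205 (ranks 82.1 and 80.9) held an NFI motif, and those at chr4:154595183-154596184 (79.5 and 72.8) and chr4:154558288-154558508 (43.6 and 68.5) each held an EBF motif.

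Ebf2 had 15 brown-specific and 0 white-specific regions, while its promoter ranks of 95.4 and 98.3 in brown and 96.2 and 97.6 in white adipose overlapped. Nfia, which opens brown fat enhancers together with Pparg, had 24 and 8, Ppara, the fasting-responsive receptor of fatty acid oxidation, 22 and 2, Esrrg 16 and 1, Lhx8 8 and 0, Esrra 6 and 0, and Klf11 3 and 1. Irf4 had 2 of each kind. Zfp516 with 3 and 4 and Foxc2 with 0 and 1 were the 2 genes with the opposite excess. After Zic1 the largest difference of mean promoter rank in the list was that of Prdm16, 9.47 points.

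**Figure D3:**
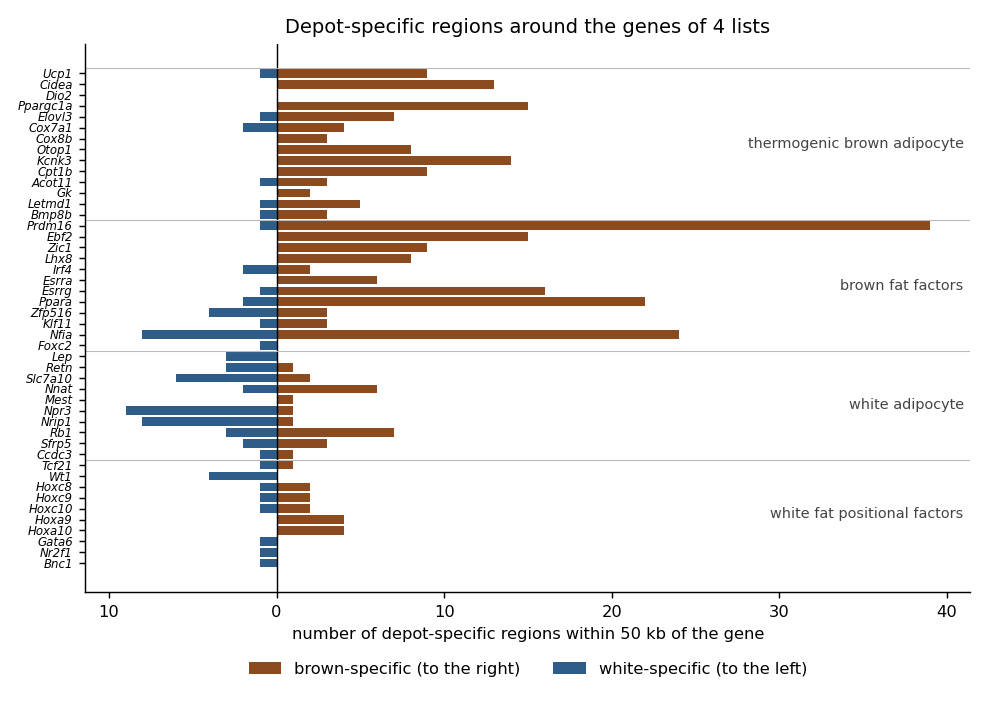
Number of brown-specific regions (bars to the right) and white-specific regions (bars to the left) within 50 kb of the genes of 4 lists. Prdm16 has 39 brown-specific regions and 1 white-specific region, and Npr3 has 1 and 9.

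Genes of white adipocytes were open in both depots. Of 10 genes of the white adipocyte list, 0 promoters were called in either direction, and the mean promoter rank of the list was 82.9 and 87.0 in brown and 87.7 and 86.1 in white adipose. In the windows 5 genes had an excess of white-specific regions (50%) and 4 of brown-specific regions (40%), with 37 and 23 regions in all. Over all protein-coding genes these shares were 32% and 31.1%. Npr3, the clearance receptor for natriuretic peptides, had 9 white-specific regions and 1 brown-specific region. Nrip1, a corepressor of oxidative genes, had 8 and 1, the amino acid transporter Slc7a10 6 and 2, and resistin (Retn) and Lep 3 each against 1 and 0. Rb1 with 3 against 7, Nnat with 2 against 6, Sfrp5 with 2 against 3 and Mest with 0 against 1 had the opposite excess. Ccdc3 had 1 of each kind. Slc7a10 had promoter ranks of 64.7 and 77.3 in brown against 85.1 and 79.7 in white adipose, and Sfrp5, an inhibitor of Wnt signals, 40.4 and 56.8 against 70.3 and 65.9. The ranks of Slc7a10 and Sfrp5 did not overlap between depots, and neither did those of Nrip1 (99.3 and 99.5 in brown against 98.5 and 98.5 in white adipose) and Lep in the other direction, but all 4 differences fell short of the 20 points of a call.

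Several developmental factors had promoters ranked higher in white adipose. Of 10 white fat positional factors, 6 were called higher in white adipose and 1 in brown adipose, against 6.86% and 2.51% of all promoters tested. Tcf21, a factor of visceral fat progenitors, had ranks of 0 in both brown libraries and of 46.9 and 75.8 in white adipose. Wt1, a factor of the mesothelium and of visceral fat, had 3.20 and 50.2 against 73.7 and 82.4, with 4 white-specific and 0 brown-specific regions. Gata6 had 65.0 and 65.4 against 93.5 and 97.1, Hoxc10 53.4 and 59.2 against 72.9 and 82.6, Hoxc9 0 and 0 against 13.6 and 46.8, and the zinc finger factor Bnc1 0 and 0 against 22.4 and 31.3. These promoters were open elsewhere too, Tcf21 at 89.5 and 79.4 in heart, Wt1 at 90.8 and 88.6 in heart, Hoxc9 at 86.3 and 79.98 in kidney and Gata6 at 99.1 and 99.3 in liver (fed and fasting). Hoxa9 was called the other way, with 71.1 and 81.9 in brown against 42.4 and 66.9 in white adipose. The Hox genes of a cluster lie in windows that overlap, so the 2 brown-specific regions and 1 white-specific region of Hoxc8, Hoxc9 and Hoxc10 and the 4 and 0 of Hoxa9 and Hoxa10 are largely counted for each gene. The windows of Tcf21 (1 and 1), Gata6, Nr2f1 and Bnc1 (0 and 1 each) held few depot-specific regions, and the excess was brown in 5 and white in 4 genes of the list. By nearest start in place of the window it was brown in 1 and white in 5.

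Factors of the somite and muscle lineage, from which brown fat of the back descends, were called higher in brown adipose for 2 of 7 genes tested and in white adipose for 0. Over all promoters tested these shares were 2.51% and 6.86%. En1, which marks the dorsal somite, had promoter ranks of 71.9 and 82.2 in brown against 37.4 and 48.2 in white adipose, and Meox1 had 47.2 and 63.3 against 0 and 43.6. En1 was ranked higher still in muscle (91.5 and 93.5) and Meox1 in heart (88.8 and 90.4). Eya1 of the same list had 60.1 and 40.2 in brown against 69.3 and 64.7 in white adipose, without overlap and short of a call. Myf5 had at most 15.2 and Pax7 0 in all 4 libraries. Of the general adipocyte list all 16 promoters were open in all 4 libraries with mean ranks from 92.3 to 95.7, and 0 were called. Its means of 87.1 and 90.6 in liver and 87.2 and 85.2 in spleen were not far below, so the list does not check the labels. In the windows 11 of the 16 genes (68.8%) had an excess of brown-specific regions and 3 (18.8%) of white-specific ones. Over all protein-coding genes these shares were 31.1% and 32%. Pparg, the receptor that drives fat cell formation, had 15 brown-specific and 4 white-specific regions, and the fatty acid transporter Cd36 12 and 3. Cebpa had 4 and 7 and Adrb3, the adrenergic receptor of fat, 2 and 4.

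Markers of other cells differed between the libraries too, and their part in the depot differences was not tested. Of 12 genes of the epididymis, a male duct beside which some white fat lies, 2 of 8 tested were called higher in white adipose, Lcn5 (0 and 0 in brown, 88.2 and 62.7 in white adipose) and its neighbour Lcn10 (0 and 0 against 31.7 and 22.8). Of all promoters tested 6.86% were called higher in white adipose. Lcn5 was also open in heart (89.8 and 90.6), muscle (80.1 and 85.2) and liver (67.2 and 64.9). Rnase10 was open in all 4 adipose libraries (94.2 and 96.8 in brown, 91.8 and 95.7 in white) and was the 1 gene of the list above 0 in fed brown adipose. The mean rank of the list was 43.0 in fed white, 15.1 in fasting white, 7.85 and 9.33 in brown adipose, and from 10.9 to 27.5 in the 12 libraries of other tissues. Ros1 (90.5), Adam7 (75.3), Defb20 (60.0) and Crisp1 (46.9) were listed in fed white adipose and at 0 in the other 3 adipose libraries, while the defining marker Gpx5 was at 0 in all 4.

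Of 8 macrophage genes, 3 were called higher in white and 1 in brown adipose, against 6.86% and 2.51% of all promoters tested. Csf1r, the receptor for the growth factor of macrophages, had 0 and 0 in brown against 83.8 and 80.5 in white adipose, Adgre1 (F4/80) 0 and 0 against 41.2 and 75.8, and lysozyme Lyz2 0 and 0 against 49.6 and 74.0. Cd163 went the other way with 81.2 and 69.1 against 18.7 and 67.5. Cd68 also had the higher mean in brown adipose, 70.6 and 86.9 against 33.7 and 78.0, but its ranks overlapped and it was not called. Mpeg1, Mrc1 and Fcgr1 had the higher mean in white adipose, by less than 20 points. In the windows 6 of the 8 genes (75%) had an excess of white-specific and 0 of brown-specific regions, 8 against 1 at Csf1r and 5 against 0 at Lyz2. Over all protein-coding genes these shares were 32% and 31.1%. The mean rank of the list was 19.0 and 21.4 in brown and 32.3 and 51.1 in white adipose, against 74.5 and 72.3 in spleen.

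Of 10 skeletal muscle fibre genes, 1 was called, the actin gene Acta1, with 75.7 and 56.8 in brown against 93.1 and 94.4 in white adipose. The mean rank of the list was 74.6 and 64.2 in brown, 77.5 and 79.6 in white adipose and 93.1 and 92.5 in muscle, so its mean was below that of white adipose in both brown libraries. Among 6 fibroblast and progenitor genes, Dpp4 (24.95 and 5.20 against 87.4 and 63.8) and Cd34 (55.5 and 67.9 against 86.5 and 83.5) were called higher in white and Pi16 (91.2 and 92.3 against 49.6 and 81.5) in brown adipose. The T cell gene Cd3d (0 and 33.3 against 50.1 and 71.1) was the 1 call among 4 tested of 8 lymphocyte genes. The endothelial gene Emcn (29.8 and 33.3 against 4.71 and 12.6) was the 1 call among 6 endothelial genes, in favour of brown adipose. Of 6 mesothelium genes Wt1, which is also among the positional factors, was the 1 call. Beside these counts, 6.86% of all promoters tested were called higher in white and 2.51% in brown adipose.

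The promoters named next were taken from those called whose strongest region overlapped no peak of the other depot. A rank at or near 0 in the other depot is therefore largely given by that choice. Among these, the brown promoter of largest difference was Perm1, a muscle and fat regulator of mitochondrial genes, with ranks of 95.05 and 97.7 against 0 and 0. It was followed by H1fnt, a linker histone known from the testis, with 94.9 and 97.5 against 0 and 0, then Cpt1b and Otop1, and then Tmem171 with 93.1 and 94.5 against 4.71 and 0. In white adipose Agt, the angiotensinogen that fat secretes, led with 0 and 0 against 94.8 and 92.7. Dcstamp, a protein of cell fusion in osteoclasts, followed with 0 and 0 against 91.4 and 85.5. Wfdc8 and Wfdc6b, protease inhibitors that share a promoter region, had 92.2 and 82.9, and Fcamr, an Fc receptor, 87.2 and 87.6, each against 0 and 0 in brown adipose. Promoters with none listed in the other depot were the smaller part of those called, 114 of the 439 brown and 338 of the 1202 white calls. The strongest region of 252 of the 439 and of 699 of the 1202 overlapped a peak of the other depot. Promoter ranks also moved within a depot, by at least 20 points between fed and fasting at 1321 genes in brown and 1956 in white adipose.

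Counted by regions around them, the genes of largest excess were long. Slc4a4, a bicarbonate transporter, had 47 brown-specific and 0 white-specific regions over 352.836 kb with promoter ranks from 94.5 to 95.5 in the 4 libraries. Prdm16 followed with 39 and 1, Pank1, which makes the precursor of coenzyme A, with 29 and 0 over 72.516 kb, Nav2 with 32 and 4 over 701.375 kb, and Adra1a, an adrenergic receptor, with 27 and 0 over 135.918 kb. In white adipose the guidance factor Slit3 had 34 white-specific and 5 brown-specific regions over 587.284 kb, with promoter ranks of 81.2 and 79.9 in brown against 91.7 and 94.6 in white adipose. Alcam, an adhesion protein, had 20 and 0, the zinc finger factor Bnc2 19 and 0, Tshz2 21 and 3, and the ceramide synthase Cers6 16 and 0. A longer gene has a longer window, and no count was set against length.

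The depot-specific regions themselves had lower ranks and lay farther from gene starts than those of all 4 sets. The ranks bear on the choice of regions and are given as a description. Their median rank was 53.1 in fed and 60.6 in fasting brown, and 37.7 in fed and 55.3 in fasting white adipose, against 75.5 to 81.0 for regions of all 4 sets. Of the strongest 10% of each set, 0.653% to 2.76% of regions had no overlapping peak in the other depot, and of the weakest 10%, 58.8% to 64.8%. A rank above 90 in both states was found for 153 brown-specific and 42 white-specific regions, and above 80 for 1063 and 327. The strongest were brown-specific: a region in an exon of Rsg1 (chr4:141219658-141220306) with ranks of 97.7 and 98.7, and the intergenic EBF region shown above. The strongest white-specific region, at chr13:60842693-60843316 in 4930486L24Rik, had 94.3 and 96.0. A second, at chr17:26335637-26336743, was intergenic with 94.0 and 96.4.

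Of the brown-specific regions 25.4% (95% exact binomial interval 24.7 to 26.1) and of the white-specific regions 25.2% (24.5 to 25.9) lay within 3000 bp of a start, against 43.1% of the regions of all 4 sets and 30.1% of all merged regions. The 2 depots thus had intervals that overlapped each other and lay below both other shares. The intervals cover counting error over regions only. The median distance to a start was 9007.5 bp in brown and 9106 bp in white adipose against 4763 bp for regions of all 4 sets.

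Regions open in both depots differed by rank more often in favour of brown adipose. Of the 60425 regions of all 4 sets, 6296 (10.4%) had both brown ranks above both white ranks with a mean difference of at least 20 points, and 3694 (6.11%) the reverse. At promoters the order was the other way, 2.51% against 6.86%. The promoter share was 29.2% among the regions ranked higher in brown and 33.6% among those ranked higher in white adipose. The median difference over all regions of all 4 sets was 0.0461 points, so the ranks of the depots were centred alike.

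Motifs were searched within 100 bp of the summit, on both strands, in the 11949 brown-specific and 11085 white-specific distal regions, those over 3000 bp from a start. The background was 34394 distal regions of all 4 sets and 180780 distal regions in all. N stands for any base, and mean GC was 48.5% and 48.9%, nearly equal between depots. A match describes the letters and is not evidence of binding. The share of the ERR motif TCAAGGTCA, which estrogen-related receptors of mitochondrial genes bind, was 1.62% (1.40 to 1.87) in brown-specific against 0.217% (0.139 to 0.322) in white-specific regions, 7.50 times as high, with 0.358% in regions of all 4 sets and 0.574% in all. The EBF motif TCCCNNGGGA followed with 3.20% against 0.677%, with 1.56% in regions of all 4 sets and 1.31% in all. The DR1 motif AGGTCANAGGTCA with at most 1 mismatch, which PPAR:RXR binds and which overlaps the ERR motif in AGGTCA, was in 1.52% against 0.469% (all 0.749%). The A/T-rich MEF2 motif was in 0.912% against 0.361% (all 0.542%) and the NFI motif TGGCNNNNNGCCA in 1.86% against 1.15% (all 1.45%). In regions of all 4 sets NFI had 1.93%, so its share was low in white-specific regions rather than high in brown-specific ones. None of these 5 pairs of 95% exact binomial intervals overlapped.

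White-specific regions more often held the motifs of PU.1, AP-1 and GR. The PU.1 motif GAGGAAGT, of the factor of myeloid and B cells, was in 4.65% of white-specific against 1.23% of brown-specific regions (all 2.25%). The AP-1 motif TGANTCA was in 13.5% against 6.63% (all 8.49%), and the GR motif ACANNNTGTNC in 7.06% against 3.18% (all 4.88%). The GATA motif, which reads AGATAA, was in 9.10% against 6.83% (all 8.14%) and the RUNX motif TGTGGTT in 5.41% against 4.19% (all 4.66%). The C/EBP motif TTGCNNAA was in 16.5% against 14.2% (all 12.4%) and the CTCF motif CCANNAGGGGGC in 0.478% against 0.134% (all 0.820%). These too were higher in white-specific regions without overlap of intervals. The C/EBP motif was in 16.1% of regions of all 4 sets, near its white-specific share. The CTCF motif was in 2.70% of regions of all 4 sets. The intervals overlapped for the E-box CAGCTG, the TEAD motif CATTCC, the ZIC motif CAGCAGG, the posterior HOX motif TCGTAAA and the ETS motif CCGGAAGT, whose GGAA core PU.1 shares. These 5 motifs were in 16.03%, 12.8%, 8.36%, 0.268% and 0.201% of brown-specific and 16.5%, 13.6%, 9.03%, 0.352% and 0.397% of white-specific regions.

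**Figure D4:**
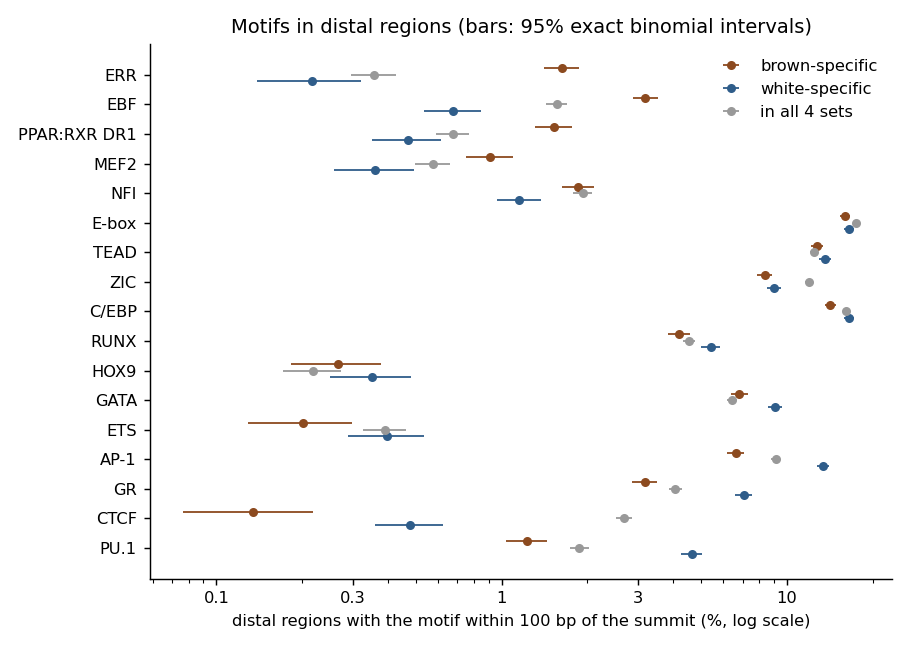
Share of distal brown-specific regions, white-specific regions and regions of all 4 sets with each of 17 motifs within 100 bp of the summit, on a log scale, with 95% exact binomial intervals. ERR, EBF, DR1, MEF2 and NFI lie farther right in brown-specific than in white-specific regions (ERR 1.62% against 0.217%). PU.1, GR and AP-1 lie farther right in white-specific ones (PU.1 4.65% against 1.23%). NFI is at 1.86% in brown-specific regions and 1.93% in regions of all 4 sets.

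Of the 12 motifs whose intervals did not overlap, 7 also parted the regions open in both depots and 5 did not. Among the distal regions of all 4 sets, 4455 ranked higher in brown and 2452 in white adipose, a choice that did not use absence. The ERR motif was in 0.831% of the first and 0.163% of the second, EBF in 2.83% and 0.734%, and MEF2 in 1.05% and 0.245%. AP-1 was in 7.30% and 15.2%, GR in 2.87% and 7.34%, PU.1 in 1.41% and 3.18%, and CTCF in 0.516% and 2.57%. For DR1 (1.21% and 0.897%), NFI (2.58% and 1.88%), GATA (5.90% and 6.89%), RUNX (4.22% and 5.02%) and C/EBP (16.5% and 16.4%) the intervals overlapped.

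The shares of several motifs moved when each state was taken alone. A region then needed no presence in the other state, and absence was from 1 library of the other depot. The distal sets were larger, 43418 brown-specific and 49182 white-specific in the fed and 33962 and 44580 in the fasting libraries. A change from the value of both states is therefore not a measure of feeding. The ratio of brown-specific to white-specific shares, 7.50 for ERR with both states, was 4.48 in the fed and 2.93 in the fasting libraries alone. For EBF it was 4.73, 4.01 and 2.49, and for DR1 3.25, 2.45 and 2.04. For PU.1 it was 0.265, 0.516 and 0.372, and for AP-1 0.493, 0.764 and 0.584. None of these 5 changed its order. In the fed libraries alone the intervals of CTCF (0.249% and 0.305%) and RUNX (4.49% and 4.62%) overlapped. In fed libraries alone the GR motif was in 2.59% of brown-specific and 8.69% of white-specific regions, and in fasting libraries alone in 3.70% and 4.28%. The C/EBP motif changed its order in the fed libraries alone, with 13.8% in brown-specific and 10.7% in white-specific regions, and had 10.2% and 13.5% in the fasting libraries alone.

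Chromatin of the other 6 tissues placed the depot-specific regions further. A peak of the fed or fasting set of the spleen overlapped 34.4% of white-specific and 12.3% of brown-specific regions (mean of the states), and one of the lung 41.6% and 17.4%. In muscle the shares were 31.2% and 24.8%, in heart 22.6% and 16.6%, in kidney 25.02% and 22.3%, and in liver 21.8% and 19.9%. Of all merged regions, fed and fasting spleen overlapped 29.1% and 30.2%, and lung 37.0% and 36.3%. Muscle overlapped 33.4% and 36.8% of them, heart 27.4% and 28.8%, kidney 33.8% and 35.2%, and liver 28.2% and 29.5%. White-specific regions were thus above the share of all merged regions in spleen and lung alone. Brown-specific regions were below it in every tissue. No deposited peak of any other tissue touched 32.7% (32.0 to 33.5) of the brown-specific and 20.1% (19.5 to 20.8) of the white-specific regions, against 26.4% of all merged regions and 4.79% of those of all 4 sets. Thus 5241 brown-specific and 2982 white-specific regions were listed in 1 depot alone among the 8 tissues.

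**Figure D5:**
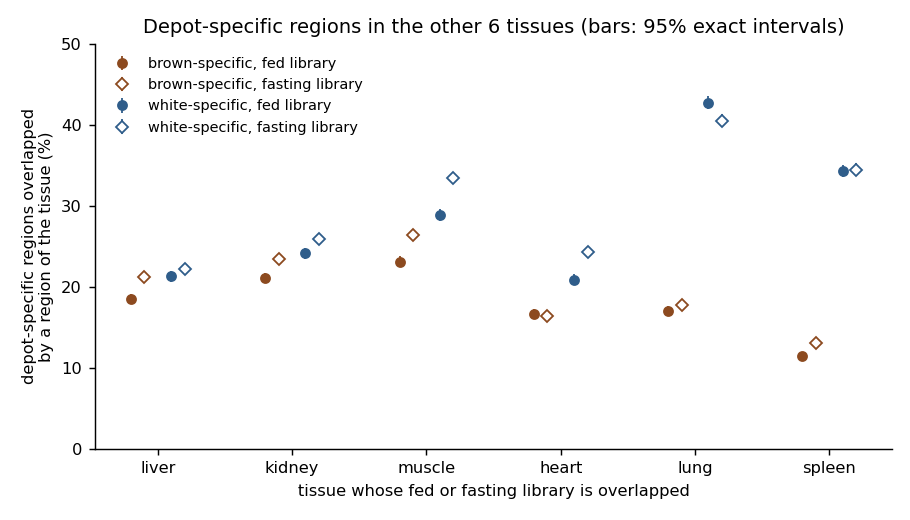
Share of the 16014 brown-specific and 14822 white-specific regions overlapped by a set region of the fed (circles) or fasting (diamonds) library of each other tissue, with 95% exact binomial intervals. White-specific regions stand near 34% in spleen and 42% in lung, brown-specific regions near 12% and 17%, while the depots lie close together in liver and kidney.

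For several motifs the overlap with other tissues went with the motif. Distal white-specific regions with a PU.1 motif (515) lay in a spleen region of either state for 77.9% and in a lung region for 77.7%, against 39.5% and 45.9% of all distal white-specific regions. Those with a RUNX motif (600) did so for 51.5% and 54.3%, while those with a GR motif (783) were below the whole, with 33.1% in spleen and 37.0% in lung, and above it in muscle (45.6% against 39.1%). Distal brown-specific regions with a MEF2 motif (109) lay in a muscle region for 61.5% and in a heart region for 55.0%, against 29.96% and 21.4% of all distal brown-specific regions. Those with a DR1 motif (182) lay in a liver region for 45.6% and in a kidney region for 35.7%, against 24.9% and 24.7%, and in muscle for 18.7% against 29.96%. Those with an EBF motif (382) were below the whole in liver (17.3%) and kidney (19.4%). Those with an ERR motif (194) had 33.0% (26.4 to 40.1) in kidney and 30.4% (24.0 to 37.4) in both liver and muscle. The latter interval holds the shares of all distal brown-specific regions in liver and muscle, 24.9% and 29.96%.

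With regions that touched a peak of spleen or lung left out, 8238 brown-specific and 4789 white-specific distal regions remained. Among these the PU.1 motif was in 0.935% (0.738 to 1.17) and 1.29% (0.994 to 1.66), so the intervals overlapped. They also overlapped for NFI (1.55% and 1.32%) and RUNX (3.87% and 4.36%). Of the other motifs, AP-1 was in 6.55% and 12.5%, GR in 3.24% and 8.21%, ERR in 1.74% and 0.0626%, EBF in 3.16% and 0.856%, and C/EBP in 15.3% and 21.3%.

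For all these differences the 2 depots were the most alike pair among the 8 tissues. The Jaccard index of their sets, the share of the bases in either set that lies in both, was 0.443 between the fed libraries, 0.458 between the fasting libraries, 0.461 for fed brown with fasting white and 0.384 for fasting brown with fed white adipose. The mean of 0.436 was the highest of all 28 pairs of tissues, above muscle with heart at 0.370 and white adipose with lung at 0.358, and the median pair had 0.297. A one-sided exact permutation test over the 28 choices of a pair gave p = 0.0357, the smallest it can give, although pairs that share a tissue are not independent. Muscle was about as near to brown (0.346) as to white adipose (0.344). The index was 0.551 between the states of brown and 0.495 between those of white adipose, both above the 4 values between depots.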

How the data were processed

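ATAC-seq peak lists of 16 pooled mouse libraries (8 tissues, fed and fasting) were deposited, and 4 of them, 1 for each adipose depot and state, were compared. The authors trimmed the reads, aligned them to GRCm38 with Bowtie2, dropped unmapped and duplicate reads and called peaks on each library with MACS2 (versions not given in the sources used here). Each deposited peak has a ratio, the fold of tags at its summit over the local background of the same library, a −log10 p-value and a −log10 q-value, none scaled between libraries. The lists held 298996 to 299529 rows per library, and rows of an interval were joined into 1 region. Joining left 149835 regions in fed and 189706 in fasting brown adipose, and 156687 in fed and 178341 in fasting white adipose. The sets held 131688 to 225899 regions per library.

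Fold and p-value together gave whole tags (within 0.001) for 100% of regions in each of the 4 adipose libraries, and the expected tags of the weakest background served as depth, which ranged from 5.87 to 12.8. Peaks carry counting error within a library and no replicate error. Starts and genes were taken from GENCODE vM21 and sequences from the GRCm38 genome of RefSeq. Chromosome lengths held every peak.

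The rank was the percentile of the p-value in its own list. A promoter was called by both ranks of a depot above both of the other and a difference of means of at least 20 points. The gene window was 50 kb to each side, overlap was 1 bp, and a distal region lay over 3000 bp from a start. Members, lists, motifs and rules were chosen with earlier results of these data known. Genes were named from 13 lists (126 entries) and as the 5 of largest difference in each direction. For promoters, these were taken only from those called whose strongest region overlapped no peak of the other depot. The interval of a share was exact binomial at 95%. Code was tested on simulated data. Python 3.11.15, numpy 2.4.6, pandas 2.3.3, scipy 1.17.1 and matplotlib 3.10.9 were used.

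Alternatives were other q thresholds, the 50000 strongest regions, thinning to equal background tags, other windows and overlaps, and each state alone. Thinning kept 0.460, 0.869, 0.586 and 1.0 of the tags of fed brown, fasting brown, fed white and fasting white adipose.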

Additional observations from a re-analysis of the deposited data

How the results depend on the processing

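No paired analysis was possible because no result between depots comes from a replicated test. The pairs that the design gives are brown and white adipose of a state, from the same group of mice, and their values are those of each state alone. The number of depot-specific regions followed the settings: 16014 brown-specific and 14822 white-specific regions became 7284 and 5865 with sets at q under 1e-06, and 2721 and 902 with the 50000 strongest regions of each library. With q under 1e-06 for both sets and absence, an alternative chosen after seeing the data, 7708 were white-specific. The log2 ratio of brown-specific to white-specific regions, 0.11 as reported, was 0.31, 1.59 and 0.56 in these settings, 0.00495 after thinning to equal background tags (95107 to 130503 regions were then left in a library) and 0.0692 with absence from the sets alone. In a single state it was reversed, from -0.39 (fasting, 46192 and 60703 regions) to -0.13 (fed, 60031 and 65647), so neither depot can be said to hold more specific regions.

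The promoter share was 11.1% and 12.4% within 1000 bp, 18.4% and 17.9% with starts of protein-coding genes, 24.2% for white-specific regions at q under 1e-06, from 26.5% to 27.7% for brown-specific regions in a single state, and from 25.1% to 26.6% for white-specific regions. Promoter calls fell to 196 brown and 574 white at 40 points, and from 628 (fed) to 856 (fasting) were brown in a single state. The mean Jaccard index, 0.436 as reported, was from 0.440 to 0.475 in the 4 alternatives and the highest of the 28 pairs in each. With nearest starts the white fat positional factors moved from a net excess of 1 brown gene to one of 4 white genes (-4). The log2 ratio of the C/EBP motif was -0.40 in the fasting and 0.36, reversed, in the fed libraries alone. The causes were not tested. Depth limits absence: a weak region can be missing from a list of limited length.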
